A study of Mus musculus with 2 samples.

Results

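The tissue isoforms of cytochrome oxidase are 9 nuclear genes, Cox4i1, Cox4i2, Cox6a1, Cox6a2, Cox7a1, Cox7a2, Cox7a2l, Cox8a, and Cox8b. They were taken by symbol from the 32285 genes counted in each library. They were chosen by their measured levels in these cells, Cox8b for its level in retinal pigment epithelium (RPE), so the values are given as a description and without tests. Retinas dissected from male C57BL/6J mice aged 7 months were digested with trypsin and papain and profiled by droplet-based 3′ scRNA-Seq. The WT group and the ND6 group each held 1 library, replicate 1. ND6 mice carry a missense mutation in the mtDNA-encoded ND6 gene of complex I and are a model of Leber's hereditary optic neuropathy. Their line goes back to a fusion with female embryonic stem cells. The mutation is passed on by the mother, with fathers from the WT strain, while the WT colony was inbred, so the breeding of the groups differed. The number of retinas per library is not given in the sources used here, and the labels name no treatment. With 1 library per genotype, genotype, animal, and preparation cannot be told apart. Further samples of the study were not analysed here.

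Cytochrome oxidase, complex IV, is the last enzyme of the respiratory chain and passes electrons from cytochrome c to oxygen. Its catalytic core is encoded by mtDNA, and the nuclear subunits around it stabilize and regulate that core. Several of them exist as a broadly expressed form and a form known from particular tissues. Cox4i1 and Cox4i2 encode alternative forms of subunit 4, of which Cox4i2 is known from lung and from cells that sense oxygen. Cox6a2, Cox7a1, and Cox8b are the heart and skeletal muscle forms of subunits whose general forms are Cox6a1, Cox7a2, and Cox8a, and Cox8b is also known from brown fat. Cox7a2l, or Scaf1, is a relative of the subunit 7a genes known for joining complex IV to complex III in supercomplexes. The retina is among the tissues with the highest oxygen use, most of it in rods, and the RPE beside it recycles retinoids and ingests shed rod outer segments.

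A barcode counted as a cell if it had more than 400 UMIs (unique molecular identifiers, 1 for each captured transcript) in more than 200 genes and if mtDNA gave no more than 20% of them. These limits kept 12529 WT and 18395 ND6 cells, with 54524401 and 62949610 UMIs and medians of 1878 and 1416 UMIs per cell. The mtDNA limit removed 45.9% of WT and 17.3% of ND6 barcodes that met the other limits. The libraries shared 59 cell barcodes, 0.471% of WT and 0.321% of ND6 cells. Levels are CPM, a gene's UMIs scaled to the total UMIs of the same cells, and are not scaled by transcript length, since a 3′ library gives 1 tag per transcript, although capture may differ between genes. All intervals are exact, at 95%, and cover counting error only. The 16 clusters were named from marker genes. RPE-like cells numbered 328 in WT and 953 in ND6, rod-like cells 9900 and 13383, cone-like cells 637 and 1124, bipolar-like cells 233 and 635, amacrine-like cells 77 and 300, Müller-like cells 36 and 92, and microglia- or macrophage-like cells 255 and 136. Red blood cell-like cells (283 and 606) were left out of the comparisons. The microglia- or macrophage-like class joined a cluster of 317 cells led by Igkc, Ccl5, Tyrobp, and Fcer1g and a cluster of 74 cells led by Ccl4, Ccl3, Cx3cr1, and C1qc. All 8 markers of the class were raised in both, and whether the larger cluster held other immune cells was not tested. A cluster of 780 WT and 1166 ND6 cells led by Nefl and Glul stayed unnamed. In RPE-like cells, 9 of 10 RPE markers were raised, with a summed level of 68310 CPM in WT and 61930 CPM in ND6, and Best1 was at 0 in both.

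In mm10 (GRCm38, GENCODE M21 coordinates), the Cox8 genes lie on different chromosomes, Cox8a (ENSMUSG00000035885) at chr19:7215153-7217616 and Cox8b (ENSMUSG00000025488) at chr7:140898945-140900446, both on the minus strand. The promoters of this pair are shown because their products differed most between cell classes. Of the 9 genes, 6 had a promoter window in RefSeq (GRCm38.p6), namely Cox6a1, Cox7a1, Cox7a2, Cox7a2l, Cox8a, and Cox8b. The sequences run from 250 bases before the annotated start to 30 bases after it, at chr19:7217587-7217866 for Cox8a and chr7:140900417-140900696 for Cox8b, written 5′ to 3′ on the minus strand. Capitals mark the motifs found, ATTGG in Cox8a and TATAAA in Cox8b.
Cox8a: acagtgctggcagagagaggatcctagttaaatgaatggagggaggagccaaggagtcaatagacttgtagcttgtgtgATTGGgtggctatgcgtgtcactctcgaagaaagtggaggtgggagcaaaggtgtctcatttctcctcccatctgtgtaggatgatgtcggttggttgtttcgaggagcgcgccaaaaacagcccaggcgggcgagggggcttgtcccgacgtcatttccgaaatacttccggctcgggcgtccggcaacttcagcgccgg
Cox8b: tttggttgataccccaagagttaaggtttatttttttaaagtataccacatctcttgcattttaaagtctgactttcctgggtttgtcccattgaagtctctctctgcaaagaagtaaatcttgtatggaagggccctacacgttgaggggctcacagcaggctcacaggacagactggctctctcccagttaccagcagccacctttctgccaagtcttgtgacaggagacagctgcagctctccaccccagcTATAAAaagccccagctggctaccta

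The Cox8a window of 300 bases held 19 CpG and 56.0% G and C, and that of Cox8b held 2 CpG and 48.3%. Of 32851 promoter windows of that length, 73.5% had no more CpG than Cox8a and 23.3% no more than Cox8b. The TATA box letters TATAAA, read on both strands, began 4 bases past the annotated start of Cox8b and occurred in 13.6% of all windows. The CCAAT box, CCAAT or ATTGG, occurred in 37.4% of windows and in those of Cox6a1, Cox7a1, and Cox8a. The GC box GGGCGG, present in 35.7% of windows, was found in those of Cox6a1, Cox7a2, and Cox7a2l. The estrogen-related receptor core AAGGTCA was in none of the 6 windows and in 4.72% of all windows. The E-box CACGTG was likewise in none of the 6, and in 7.15% of all windows. The same held for the M-box core CATGTG, with 14.2% of all windows. Among the 6, the CRX core TAATCC was in the Cox7a2l window only, and in 7.06% of all windows. The NRF1 core GCGCATGC was in the Cox6a1 window only, and in 2.71% of all windows. A match to these letters is not evidence of binding.

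Cox8b UMIs lay almost entirely in RPE-like cells. This class held 2.62% of WT cells and 95.02% of WT Cox8b UMIs (95% CI, 94.2%–95.8%), and 5.18% of ND6 cells with 86.0% of ND6 Cox8b UMIs (95% CI, 83.3%–88.4%). Its level in RPE-like cells was 1568 CPM in WT (2825 UMIs, 95% CI, 1511–1627) and 368 CPM in ND6 (627 UMIs, 95% CI, 340–398). The intervals of the libraries, which cover counting error only, did not overlap, and WT was the higher. Of 9626 genes in these cells, 19.9% differed between the libraries by at least 1.5-fold. In rod-like cells Cox8b was at 2.58 CPM in WT and 1.30 CPM in ND6, from 92 and 46 UMIs. The ratio of RPE-like to rod-like cells was 608-fold in WT (95% CI, 494–757) and 282-fold in ND6 (95% CI, 209–390). Bipolar-like cells had the next highest value among the classes compared in both libraries. They stood at 8.79 CPM in WT (15 UMIs, 95% CI, 4.92–14.5) and 8.32 CPM in ND6 (34 UMIs, 95% CI, 5.76–11.6). The intervals of Müller-like cells (0.034–7.47 in WT and 0.70–20.9 in ND6) overlapped these, so the rank lay within counting error. Cone-like, amacrine-like, Müller-like, and microglia- or macrophage-like cells lay between 0 and 5.78 CPM, on at most 22 UMIs each. Where no Cox8b UMI was found, in ND6 microglia- or macrophage-like cells, 3 UMIs would have given 9.71 CPM.

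**Figure D1:**
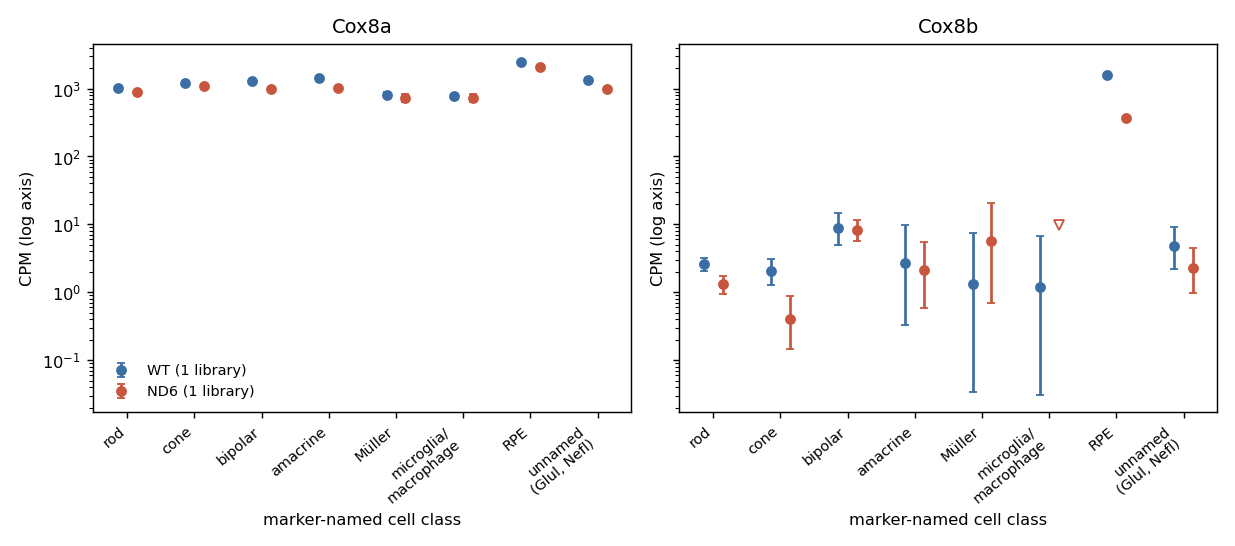
Levels of Cox8a and Cox8b (CPM, log axis) in each class compared and the unnamed cluster of the WT and ND6 libraries, with exact Poisson 95% intervals. An open triangle marks a class with no UMI at the level of 3 UMIs. Cox8a lies between 725 and 2498 CPM in every class shown, whereas Cox8b lies at 1568 CPM in WT and 368 CPM in ND6 RPE-like cells and at or below 8.79 CPM in the others.

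A Cox8b UMI was found in 51.2% of WT RPE-like cells (95% CI, 45.7%–56.7%) and in 24.2% of ND6 RPE-like cells (95% CI, 21.5%–27.1%), at median depths of 2455 and 1116 UMIs. In rod-like cells, which served as background for RNA from other cells, the share was 0.879% in WT and 0.321% in ND6, at median depths of 1774 and 1347 UMIs. After every cell was thinned to 400 UMIs, the RPE-like shares were 24.7% and 11.96% and the rod-like shares 0.131% and 0.0822%. Barcodes with 10 to 100 UMIs, taken as free RNA, held Cox8b at 44.2 CPM in WT (10 UMIs) and 7.71 CPM in ND6 (3 UMIs). These free RNA values had overlapping intervals (21.2–81.3 CPM in WT and 1.59–22.5 CPM in ND6), with the higher value in WT as in the RPE-like cells.

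Cox8a, the general form, was present in every class. In rod-like cells it stood at 1014 CPM in WT and 900 CPM in ND6. RPE-like cells had the highest level in both libraries, 2498 CPM (95% CI of the ratio to rod-like cells, 2.39–2.54-fold) and 2076 CPM (2.23–2.39-fold). Microglia- or macrophage-like cells were lowest in WT at 768 CPM, and Müller-like cells lowest in ND6 at 725 CPM, although these classes lay within counting error of each other in both libraries, with Müller-like cells at 809 CPM in WT and microglia- or macrophage-like cells at 732 CPM in ND6. Of all Cox8 UMIs, Cox8b made up 38.6% in WT RPE-like cells (95% CI, 37.4%–39.7%) and 15.1% in ND6 RPE-like cells (95% CI, 13.99%–16.2%). In every other class compared it made up at most 0.827%. Cox8b in RPE-like cells therefore stood beside the highest level of Cox8a.

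**Figure D2:**
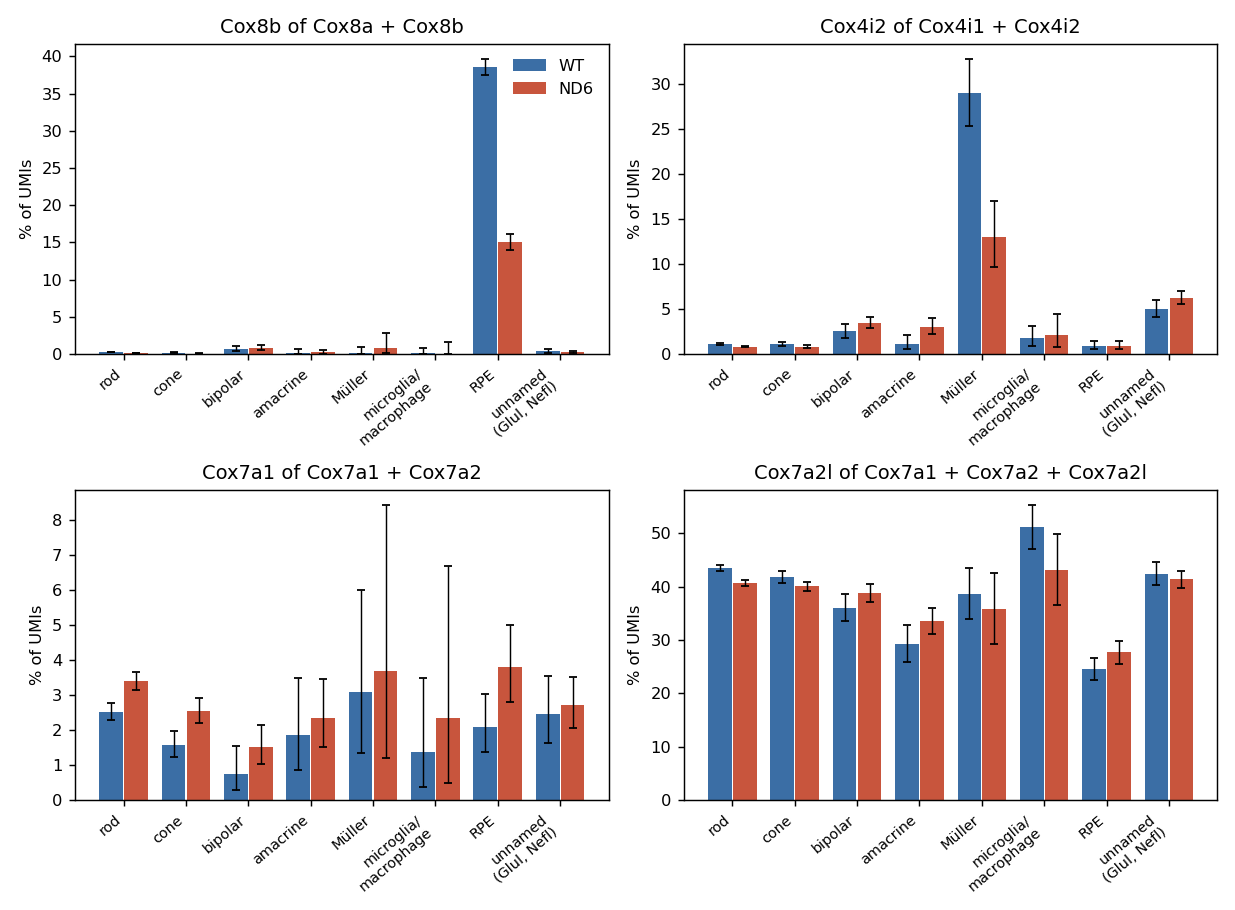
Share of UMIs (%) from Cox8b, Cox4i2, and Cox7a1 in their pairs and from Cox7a2l among the subunit 7a genes. Values are for each class compared and the unnamed cluster of the WT and ND6 libraries, with exact Clopper-Pearson 95% intervals. Cox8b reaches 38.6% and 15.1% of the Cox8 pair in RPE-like cells and Cox4i2 reaches 28.9% and 13.0% of the Cox4 pair in Müller-like cells, whereas Cox7a1 stays at or below 3.79% of its pair and Cox7a2l ranges from 24.6% to 51.2% of the subunit 7a genes.

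Between the libraries, Cox8b in RPE-like cells had a log2 ratio of ND6 over WT of −2.09 (95% CI, −2.22 to −1.96). Cox8a in the same cells had a log2 ratio of −0.27 (95% CI, −0.33 to −0.20). Summed over all cells, Cox8b was at 54.5 CPM in WT and 11.6 CPM in ND6, a log2 ratio of −2.24 (95% CI, −2.35 to −2.12), while RPE-like cells gave 3.30% of WT and 2.70% of ND6 UMIs. Over all cells a Cox8b UMI was found in 2.38% of WT and 1.74% of ND6 cells, and in 0.846% and 0.707% after thinning to 400 UMIs. With every cell weighted equally the ratio over all cells was −0.69, and with every cell thinned to 400 UMIs it was −0.63. The level in rod-like cells also had a lower value in ND6 (log2 ratio, −0.98; 95% CI, −1.53 to −0.46) and that in cone-like cells likewise (log2 ratio, −2.37; 95% CI, −3.96 to −1.02), on 22 and 6 UMIs in cones. The part of free RNA in the rod-like, cone-like, and bipolar-like values was not tested.

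The RPE-like class was not uniform, and its make-up differed between the libraries. Clustering at the finer resolution of 2 placed nearly all of its cells in 3 groups, which were looked at after the data were seen. Group 1, led by Cox8b, Dct, Ptgds, and Rpe65, held 100 WT cells and 5 ND6 cells and was the deepest, with medians of 8238 and 5785 UMIs. Group 3, led by Serpine3, Rgr, Trf, and Ttr, held 130 WT and 764 ND6 cells with medians of 2087 and 973 UMIs. Group 2, led by Enpp2, Timp3, Trf, and Lrat and unnamed at this resolution, held 97 WT and 184 ND6 cells of the class. RPE markers summed to 103269 CPM in WT and 113616 CPM in ND6 in group 1, 2930 and 7804 CPM in group 2, and 61438 and 86471 CPM in group 3, higher in ND6 in each, whereas Cox8b was lower. The library with more Cox8b thus also had more cells in the group where Cox8b was highest. Group 2 had rod markers at 57254 CPM in WT and 57500 CPM in ND6, near the 55445 and 61463 CPM of rod-like cells. Its RPE markers compare with 2413 CPM in WT and 1874 CPM in ND6 over all cells. Whether group 2 holds RPE cells was not tested, and its cells were kept in the values of the class.

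Cox8b was lower in ND6 than in WT in group 1 and group 3, and also in group 2 with its rod-like marker levels. Single cells carried much of the signal in group 1 and group 2. In group 1 it was at 2483 CPM in WT and 1626 CPM in ND6, a log2 ratio of −0.61 (95% CI, −0.99 to −0.25), but 1 of the 5 ND6 cells gave 75.0% of the UMIs. Without the cell of most Cox8b UMIs in each library, group 1 was at 2315 CPM in WT and 757 CPM in ND6 (16 UMIs), a log2 ratio of −1.61. In group 3, where no cell gave more than 10.99% of the UMIs, it was at 1032 CPM (95% CI, 931–1141) in WT and 481 CPM (95% CI, 441–523) in ND6, a log2 ratio of −1.10 (95% CI, −1.29 to −0.91). In group 2 it was at 136 CPM in WT and 45.9 CPM in ND6, a log2 ratio of −1.56 (95% CI, −2.29 to −0.88), and 1 WT cell gave 68.8% of the WT UMIs. Without such cells group 2 was at 119 CPM (20 UMIs) and 40.6 CPM (22 UMIs), a log2 ratio of −1.55, and group 3 had a ratio of −1.01. Cox8a differed less. Its log2 ratio was 0.03 in group 1 (95% CI, −0.24 to 0.29), 0.08 in group 3 (95% CI, −0.03 to 0.19), and −0.27 in group 2 (95% CI, −0.45 to −0.10).

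The difference was widest among deep cells. Among RPE-like cells of up to 1000 UMIs, Cox8b stood at 729 CPM in WT (61 cells) and 416 CPM in ND6 (428 cells), a log2 ratio of −0.81 (95% CI, −1.42 to −0.16). Among those of more than 1000 and up to 3000 UMIs it stood at 466 CPM (119 cells) and 366 CPM (423 cells), a log2 ratio of −0.35 (95% CI, −0.69 to −0.00). Among those of more than 3000 UMIs it stood at 1743 CPM (148 cells) and 352 CPM (102 cells), a log2 ratio of −2.31 (95% CI, −2.50 to −2.12). The WT level was highest in the deepest cells, while ND6 levels were alike in the 3 ranges of depth within their intervals. Cox8a in these ranges had log2 ratios of 0.11, 0.18, and −0.71. The 33 WT and 96 ND6 RPE-like cells with the most Cox8b UMIs, 1 in 10 of each, held 75.6% and 77.5% of them, whereas the same number of deepest cells held 46.5% and 41.8% of all UMIs of the class.

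Genes of pigment synthesis, taken as a sum, had the same order as Cox8b across the groups. Dct, Pmel, Tyrp1, Tyr, Mlana, and Mitf, which melanocytes and pigmented epithelia express, summed to 4420 CPM in WT and 2058 CPM in ND6 in group 1, 1919 and 1329 CPM in group 3, and 326 and 154 CPM in group 2. Over the class as a whole they summed to 2830 CPM in WT and 970 CPM in ND6, with none of the 6 at 0. Dct, in the top 10 genes of groups 1 and 2, gave most of the sum, at 3044 CPM in WT and 1245 CPM in ND6 in group 1. In group 3 Dct was at 1411 and 905 CPM, Tyrp1 at 130 and 117 CPM, and Pmel at 116 and 121 CPM. Rod markers had the reverse order, from 3814 CPM (WT) and 1245 CPM (ND6) in group 1 to 22017 and 17756 CPM in group 3 and 57254 and 57500 CPM in group 2, with none of the 8 at 0 in the class. Malat1, a nuclear RNA, stood at 1739 and 407 CPM in group 1, 11942 and 7511 CPM in group 3, and 28250 and 26102 CPM in group 2. The part of depth, pigment genes, rod RNA, and group in the Cox8b difference was not tested. Cells of more than 3000 UMIs with a pigment gene UMI had Cox8b at 1808 CPM in WT (138 cells) and 425 CPM in ND6 (83 cells), and those without had 117 CPM (10 cells, 7 UMIs) and 7.82 CPM (19 cells, 1 UMI). In the deep cells with a pigment gene UMI, the pigment genes themselves summed to 3210 CPM in WT and 1022 CPM in ND6, and rod markers to 18255 and 37366 CPM.

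**Figure D3:**
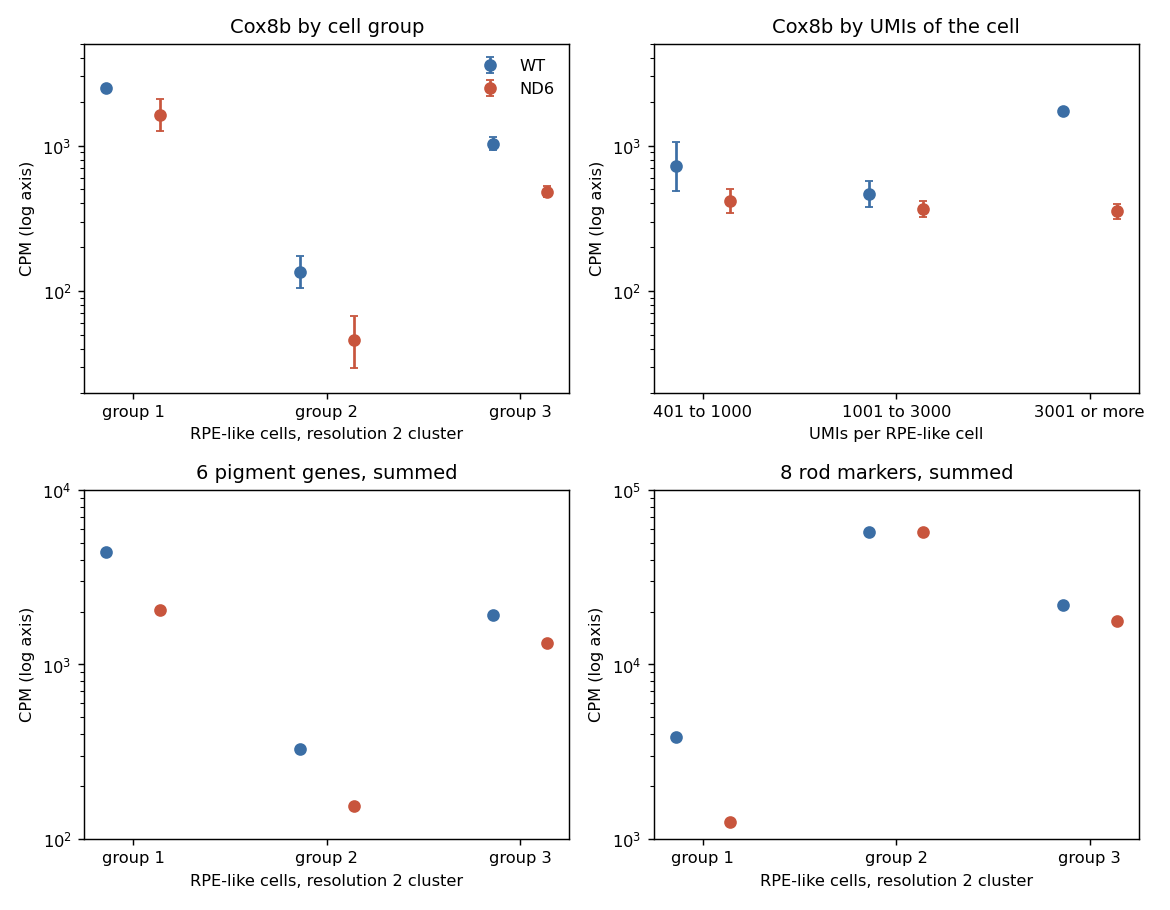
Cox8b in RPE-like cells of the WT and ND6 libraries by group and by UMIs of the cell (top; CPM, log axis, exact Poisson 95% intervals), with the summed levels of 6 pigment genes and of 8 rod markers by group (bottom; CPM, log axis, no interval drawn). Cox8b is at 2483 CPM in WT and 1626 CPM in ND6 in group 1, where 1 ND6 cell gave 75.0% of the UMIs, and at 136 and 45.9 CPM in group 2, where 1 WT cell gave 68.8%, and the gap by depth is widest in cells of more than 3000 UMIs.

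RPE cells were also called by their own markers. Barcodes with at least 3 of Rpe65, Rgr, Lrat, and Rdh5, a rule chosen after the data were seen, numbered 243 in WT and 838 in ND6, of which 232 and 792 were already RPE-like cells. Cox8b was at 1296 CPM in the WT barcodes and 282 CPM in the ND6 barcodes, with a UMI in 63.4% and 26.4% of them. Over the 16 clusters, the 5 genes whose log2(CPM + 1) followed Cox8b most closely, among 11877 genes with at least 200 UMIs, were Calml4 (r = 0.97), A930028N01Rik (r = 0.97), Col8a1 (r = 0.97), Ogn (r = 0.96), and Rpe65 (r = 0.96), the retinoid isomerase of the RPE. The clusters share their libraries, and these correlations describe a single peak in the RPE-like cluster.

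Cox4i2 was highest in Müller-like cells, the radial glia of the retina. It was at 229 CPM in WT (171 UMIs, 95% CI, 196–266) and 130 CPM in ND6 (45 UMIs, 95% CI, 94.8–174), against 9.08 and 8.94 CPM in rod-like cells. The ratio of Müller-like to rod-like cells was 25.3-fold in WT (95% CI, 20.9–30.5) and 14.5-fold in ND6 (95% CI, 10.4–19.9). The unnamed cluster led by Nefl and Glul followed at 60.0 and 74.6 CPM, and bipolar-like cells at 24.0 and 33.0 CPM. Free RNA held Cox4i2 at 31.0 CPM in WT (7 UMIs, 95% CI, 12.4–63.8) and 56.5 CPM in ND6 (22 UMIs, 95% CI, 35.4–85.6), and its part in the levels outside Müller-like cells was not tested. Cone-like, amacrine-like, microglia- or macrophage-like, and RPE-like cells lay between 7.16 and 27.9 CPM. Within WT, the intervals of amacrine-like (5.59–23.2), microglia- or macrophage-like (7.41–25.1), and RPE-like cells (7.65–18.5) overlapped, so that these neighbours in the order did not differ beyond counting error.

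Cox4i1 (ENSMUSG00000031818, chr8:120668222-120674207, plus strand), which overlaps Emc8 on the opposite strand and Gm20388, a gene absent from the count table, on its own strand, was the main form in all classes, including Müller-like cells. It was at 563 CPM in WT and 869 CPM in ND6 Müller-like cells. Cox4i2 (ENSMUSG00000009876, chr2:152754173-152765037, plus strand) made up 28.9% of Cox4 UMIs in WT Müller-like cells (95% CI, 25.3%–32.8%) and 13.0% in ND6 Müller-like cells (95% CI, 9.65%–17.0%). In the unnamed cluster it made up 4.96% and 6.26%, and in the other named classes at most 3.45%. The pair differed in direction in Müller-like cells, with a log2 ratio of ND6 over WT of −0.82 for Cox4i2 (95% CI, −1.33 to −0.34) and of 0.63 for Cox4i1 (95% CI, 0.41–0.84). With cells thinned to 400 UMIs the Cox4i1 ratio was −0.032.

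The Müller-like cells of the libraries differed in depth, with medians of 10130 UMIs in the 36 WT cells and 1662 UMIs in the 92 ND6 cells. Among those of more than 3000 UMIs, Cox4i2 was at 230 CPM in WT (35 cells) and 144 CPM in ND6 (30 cells, 95% CI, 102–197), and 29.0% and 14.3% of the pair. These cells held 743736 UMIs in WT and 270939 UMIs in ND6, so their depth was not matched. The part of depth in the difference in share was not tested. A Cox4i2 UMI was found in 91.7% of WT and 25.0% of ND6 Müller-like cells, and in 2.95% and 2.19% of rod-like cells. After thinning to 400 UMIs the Müller-like shares were 25.0% and 6.52%, and the rod-like shares 0.535% and 0.426%. Rod markers in Müller-like cells summed to 33474 CPM in WT and 31463 CPM in ND6, cone markers to 2636 and 970 CPM, and endothelial markers to 616 and 875 CPM, with 2 of the 5 endothelial markers at 0 in each. Their part in the Cox4i2 values was not tested.

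Pericytes, a known source of Cox4i2, were almost absent. Only 1 WT and 2 ND6 barcodes held at least 2 of Rgs5, Pdgfrb, Kcnj8, and Abcc9, and none had a Cox4i2 UMI, where 3 UMIs would have given 352 and 217 CPM. Barcodes with at least 2 of the endothelial genes Cldn5, Pecam1, Cdh5, and Kdr, 15 in WT and 32 in ND6, had Cox4i2 at 48.3 and 35.7 CPM. Barcodes with at least 3 of Slc1a3, Aqp4, Sox9, and Kcnj10 had it at 128 CPM in WT (47 barcodes) and 83.7 CPM in ND6 (77 barcodes). Of these, 33 in WT but only 13 in ND6 were Müller-like cells, so in ND6 the sets were largely different. The genes most like Cox4i2 over the 16 clusters were Spc25 (r = 0.98), Espn (r = 0.98), Il33 (r = 0.97), Rhpn2 (r = 0.97), and Cav1 (r = 0.96). Rbpj and Chchd2, regulators known to act at the oxygen response element of Cox4i2, had log2 ratios of −0.89 and −0.08 in Müller-like cells and of −0.22 and −0.03 in all cells. Both were within 1.5-fold in all cells, and Rbpj was past it in Müller-like cells, on 44 and 11 UMIs.

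**Figure D4:**
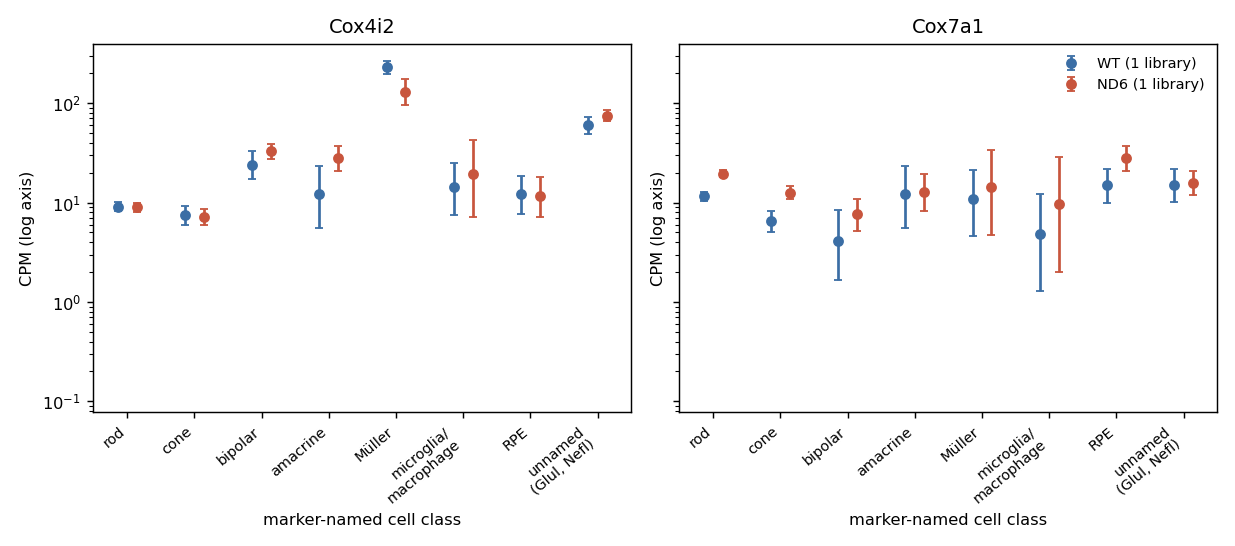
Levels of Cox4i2 and Cox7a1 (CPM, log axis) in each class compared and the unnamed cluster of the WT and ND6 libraries, with exact Poisson 95% intervals. Cox4i2 peaks in Müller-like cells at 229 CPM in WT and 130 CPM in ND6, whereas Cox7a1 stays between 4.10 and 28.2 CPM and is higher in ND6 in rod-like and cone-like cells.

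Cox7a1 (ENSMUSG00000074218, chr7:30184144-30186078, plus strand) was low in every class and was higher in the ND6 library. In rod-like cells it was at 11.5 CPM in WT (410 UMIs, 95% CI, 10.4–12.7) and 19.5 CPM in ND6 (688 UMIs, 95% CI, 18.1–21.03), a log2 ratio of 0.76 (95% CI, 0.59–0.94). In cone-like cells it was at 6.45 and 12.6 CPM, a log2 ratio of 0.97 (95% CI, 0.56–1.39). In RPE-like cells it was at 15.0 and 28.2 CPM, a log2 ratio of 0.91 (95% CI, 0.20–1.65). The rod-like class consisted of 7 clusters, and Cox7a1 was higher in ND6 in 7 of them, with log2 ratios from 0.29 to 1.16 and levels from 4.98 to 20.4 CPM in WT and from 11.1 to 31.6 CPM in ND6. These clusters come from the same libraries and are not replicates. In amacrine-like cells the values were 12.2 and 12.9 CPM, and in the unnamed cluster 15.1 and 15.8 CPM, within counting error of each other. Free RNA held 0 Cox7a1 UMIs in WT and 9 in ND6, or 23.1 CPM, and the part of free RNA in the difference was not tested.

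Cox7a2 (ENSMUSG00000032330, chr9:79755361-79759878, minus strand), the general form, was at 443 CPM in WT and 555 CPM in ND6 rod-like cells, a log2 ratio of 0.33 (95% CI, 0.30–0.36). Cox7a1 therefore made up 2.53% of the pair in WT and 3.40% in ND6 rod-like cells, and no more than 3.79% in any class compared. By cluster, Cox7a2 was higher in ND6 in 6 of the 7 rod-like clusters, with log2 ratios from −0.02 to 0.31. None reached the ratio of the pooled class, and the part of cluster make-up in that ratio was not tested. RPE-like cells had the highest value of Cox7a2, 703 and 715 CPM, although in WT its interval (665–743) overlapped that of amacrine-like cells (645 CPM, 589–706). The genes most like Cox7a1 over the clusters were Ndufs8 (r = 0.90), a subunit of complex I, Snf8 (r = 0.88), Ccs (r = 0.87), the copper chaperone of superoxide dismutase, Commd6 (r = 0.86), and Zbtb8os (r = 0.85).

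Cox7a2l (ENSMUSG00000024248, chr17:83501918-83517330, minus strand) was at 349 CPM in WT and 393 CPM in ND6 rod-like cells, a log2 ratio of 0.17 (95% CI, 0.14–0.21). By cluster, it was higher in ND6 in only 4 of the 7 rod-like clusters, with log2 ratios from −0.09 to 0.19. Cox7a2l made up 43.4% of subunit 7a UMIs in WT and 40.6% in ND6 rod-like cells. RPE-like cells had the lowest share, 24.6% in WT (95% CI, 22.6%–26.7%) and 27.7% in ND6 (95% CI, 25.6%–29.8%). Microglia- or macrophage-like cells had the highest value, 51.2% in WT (95% CI, 47.1%–55.3%) and 43.1% in ND6 (95% CI, 36.5%–49.9%), but in ND6 this interval held the values of rod-like cells and of cone-like cells (40.02%). Most cells of that class lay in the cluster led by Igkc and Ccl5. The Cox7a2l level in RPE-like cells was 234 CPM in WT and 284 CPM in ND6.

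Cox6a2 (ENSMUSG00000030785, chr7:128205435-128206387, minus strand), which overlaps the opposite-strand gene Itgad, was nearly absent. It had 4 UMIs in all WT cells and 14 in all ND6 cells, or 0.0734 and 0.222 CPM, and 0.0233% and 0.0723% of the pair with Cox6a1. In RPE-like cells it had 0 UMIs in both libraries, where 3 UMIs would have given 1.67 CPM in WT and 1.76 CPM in ND6. Its likeness to other genes over the clusters rests on 18 UMIs and is not read. Cox6a1 (ENSMUSG00000041697, chr5:115345642-115348981, minus strand) was at 315 CPM in WT and 307 CPM in ND6 over all cells, a log2 ratio of −0.03 (95% CI, −0.06 to −0.00), and was highest in RPE-like cells at 466 and 415 CPM. Cox6a2 and Cox8b, both known from muscle, therefore did not appear together in RPE-like cells.

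Across all cells, 2 of the 8 members with at least 20 UMIs differed between the libraries by at least 1.5-fold, Cox7a1 upward and Cox8b downward in ND6, where 25.4% of 15888 genes did so. In rod-like cells the count was 2 of 8, with a background of 22.4% of genes, and in cone-like cells 2 of 8, with a background of 15.6%, again Cox7a1 and Cox8b in each. In RPE-like cells it was 2 of 8, with a background of 19.9%. In bipolar-like cells only Cox7a1 passed, 1 of 8, with a background of 18.3%. In amacrine-like cells only Cox4i2 passed, 1 of 7, at 12.2 CPM in WT and 27.9 CPM in ND6, with a background of 28.0%, and its log2 ratio was −1.37 when the mtDNA limit was lifted. In this class Müller markers summed to 893 CPM in WT and 2091 CPM in ND6, and rod markers to 13357 and 20206 CPM. Ganglion cell markers summed to 1822 and 803 CPM, beside 2590 and 2170 CPM for amacrine markers. The part of this make-up in the values of the class was not tested. In Müller-like cells 2 of 6 passed, Cox4i1 upward and Cox4i2 downward, with a background of 30.3%. In microglia- or macrophage-like cells 0 of 5 passed, with a background of 32.2%. The members' counts lay near these backgrounds, and no share of members is a result in itself. The median log2 ratio over members was 0.11 in all cells, −0.04 in RPE-like cells, and −0.09 in Müller-like cells, beside 0.07, −0.00, and −0.03 over all genes counted there.

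**Figure D5:**
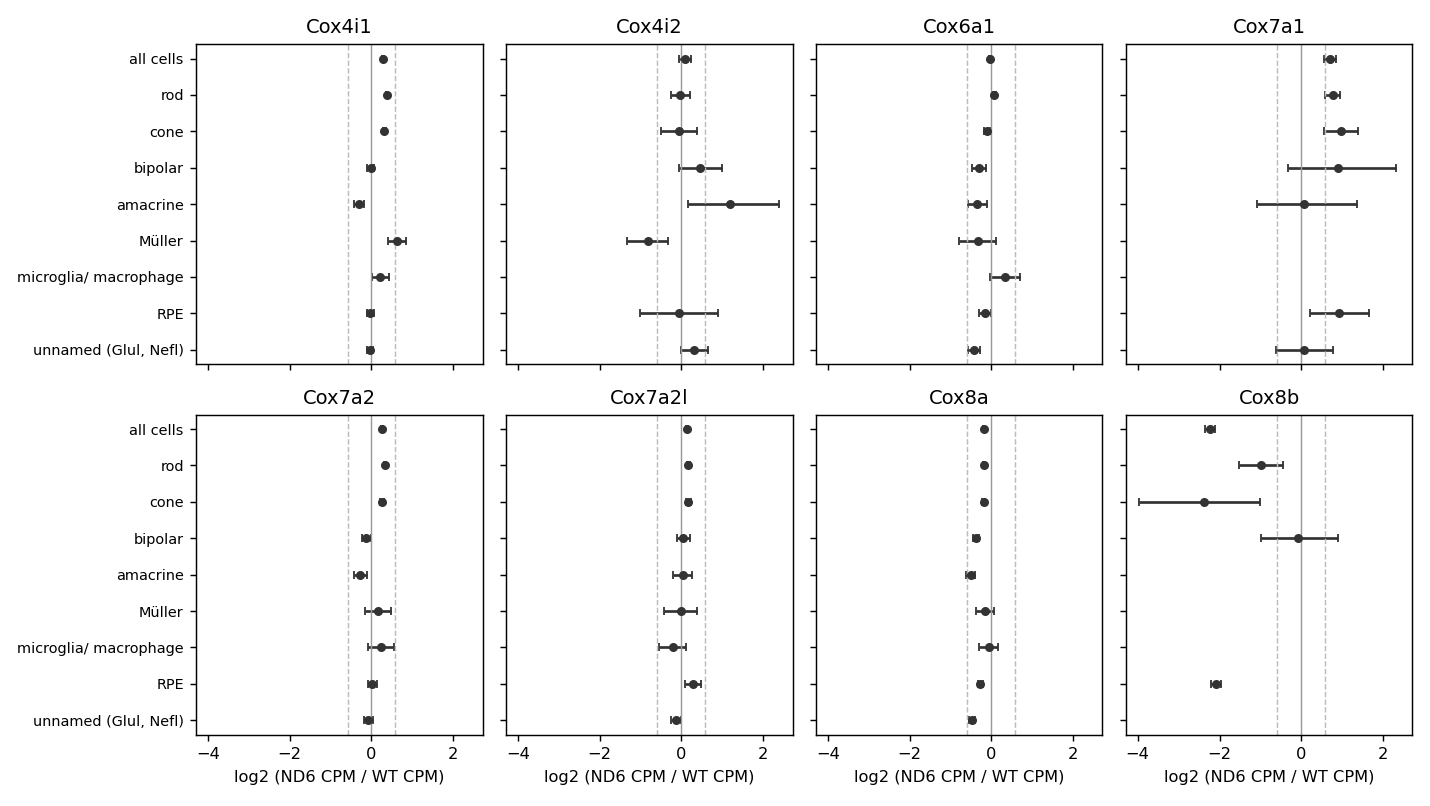
Log2 ratio of ND6 over WT CPM for 8 members in all cells, in each class compared, and in the unnamed cluster, where at least 20 UMIs were found. Intervals are exact conditional 95% intervals. Dashed lines mark 1.5-fold, and Cox6a2 had too few UMIs to be drawn. Cox8b lies at −2.09 in RPE-like cells and Cox7a1 at 0.76 in rod-like cells, whereas Cox6a1, Cox7a2, Cox7a2l, and Cox8a stay within 1.5-fold in every class.

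The general forms moved little and not together. Over all cells Cox4i1 was at 831 CPM in WT and 1014 CPM in ND6 (log2 ratio, 0.29), Cox7a2 at 453 and 538 CPM (0.25), Cox7a2l at 335 and 367 CPM (0.13), and Cox8a at 1126 and 989 CPM (−0.19). Cox8a was lower in ND6 in each of the 7 rod-like clusters and Cox4i1 higher in each of them. In amacrine-like cells, whose marker levels differed between the libraries as given above, Cox4i1 and Cox8a were both lower in ND6, with log2 ratios of −0.30 and −0.51.

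Other complex IV genes were compared as lists. Of the 11 other nuclear subunits, 9 had at least 20 UMIs over all cells, 8 of which were higher in ND6, but 0 differed by 1.5-fold (median log2 ratio, 0.20). The direction was not the same in every class, since 7 of 8 were lower in ND6 in bipolar-like cells, 7 of 8 in amacrine-like cells (2 past 1.5-fold), and 8 of 8 in the unnamed cluster. Among them Cox6c was at 981 CPM in WT and 1192 CPM in ND6, and Ndufa4, a late-added subunit, at 1859 and 2226 CPM. In RPE-like cells 1 of 8 passed 1.5-fold, Cox6b2, a testis form of subunit 6b, at 88.3 CPM in WT and 47.6 CPM in ND6. The mtDNA-encoded core genes mt-Co1, mt-Co2, and mt-Co3 were all lower in ND6 over all cells, with log2 ratios of −0.35, −0.15, and −0.12 and 0 of 3 past 1.5-fold, in cells kept by a limit on mtDNA that removed unequal shares of the libraries. All 3 were higher in ND6 in amacrine-like cells (median log2 ratio, 0.10) and in Müller-like cells (median, 0.55, with mt-Co3 past 1.5-fold), as were 2 of 3 in RPE-like cells. Of 22 genes for assembly and copper delivery, 21 had at least 20 UMIs, 9 higher and 12 lower in ND6, and 0 passed 1.5-fold (median log2 ratio, −0.07). In RPE-like cells 3 of 20 passed, where 19.9% of all genes did, with Sco1 at 4.996 CPM in WT and 11.2 CPM in ND6, Cox15 at 13.9 and 4.11 CPM, and Coa6 at 47.2 and 29.95 CPM. Of 12 genes of muscle, heart, and brown fat, 6 had at least 20 UMIs over all cells, with 3 past 1.5-fold upward and 1 downward in ND6 (median log2 ratio, 0.64), where 25.4% of all genes passed. These were Acta1 on 32 WT and 73 ND6 UMIs, Myl1 on 9 and 23, and Cidea on 5 and 16, the last pair with intervals that included no difference, and Actc1 on 22 and 10. In RPE-like cells 9 of 12 were at 0 in both libraries, Ckm, Actc1, Mb, Ucp1, and Cidea among them. Several of these genes had few UMIs in any cell, with 5 WT and 14 ND6 UMIs over all cells for Ckm, 1 and 1 for Mb, and 2 and 2 for Ucp1. Müller-like cells had 7 of 12 at 0. Their absence is therefore not read as a trait of RPE-like cells. In RPE-like cells Ppargc1a, a coactivator of mitochondrial genes, was at 78.3 CPM in WT and 94.0 CPM in ND6.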

How the data were processed

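Per the labels and the study's methods, the authors aligned the reads of each Chromium 3′ library to mm10 with Cell Ranger (v3.0.2) and deposited raw UMI counts, unnormalized, in a matrix of genes by every barcode. The annotation release is not given in the sources used here. The study's limits on UMIs, genes, and mtDNA were applied. Cells were log-normalized, 3000 variable genes without the members, complex IV genes, and mtDNA genes were reduced to 30 principal components, and Leiden clustering was run at resolution 1 with 20 neighbours (scanpy 1.11.5). Variable genes were picked with the library as batch, and each was centred and scaled within each library before the principal components. The study's regression and integration steps were not repeated, and doublets were kept. A cluster was named where at least 3 markers of its class were raised at least 2-fold and its top 10 genes held more markers of that class than of any other. A remaining cluster was called rod-like where at least 3 rod markers were raised against the named classes other than cones and its top 10 genes held no more cone than rod markers; most such clusters had no rod marker among them. This rule was set after the clusters were seen. A red blood cell-like cluster was left out of the comparisons, since at resolution 2 only 49 WT and 19 ND6 cells kept that name.

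UMIs were summed per class and library and scaled to CPM. With 1 library per group no test was made. Genes counted as differing had at least 20 UMIs over both libraries and a ratio of at least 1.5-fold. Intervals were tested on simulated Poisson and binomial counts, which share the assumptions of the intervals. Such counts cannot show how the intervals hold where UMIs lie mostly in few cells. The members, lists, and markers were chosen with earlier results of these data known. Named genes are the members, the complex IV, oxygen response, and muscle lists, and, for Cox4i2, Cox6a2, Cox7a1, and Cox8b, the 5 genes of highest correlation over clusters of at least 50 cells. Alternatives changed the cell filter, scaling, weighting, depth, clustering, and class definition. One listed gene is not reported here. Sequences are from RefSeq.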

Additional observations from a re-analysis of the deposited data

Results flagged for a closer look

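In the barcodes left out for mtDNA above 20% of UMIs, which enter only where that limit was lifted, Cox4i2 was at 44.3 CPM in WT (10647 barcodes, 570 UMIs, 95% CI, 40.7–48.1) and 111 CPM in ND6 (3861 barcodes, 521 UMIs, 95% CI, 102–121). It is listed because the ND6 level lay more than 1.5-fold above the WT level in data outside the main measurement, where the kept cells had 14.2 and 15.1 CPM. Of the other members with at least 20 UMIs there, Cox8b was lower in ND6, at 10.0 CPM in WT and 6.63 CPM in ND6, and the other 6 were within 1.5-fold. Glul, a Müller glia gene, was at 523 CPM in WT and 2879 CPM in ND6 in the same barcodes, and its part in the Cox4i2 difference was not tested.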

How the results depend on the processing

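With 1 library per group, no replicate could be left out, and animal and genotype cannot be told apart. No paired analysis was possible because the results come from no test. Over 199 values and 1641 recomputations, 1260 stayed within the counting interval, 375 moved, and 6 changed sign; the cause was not tested. The log2 ratio of Cox8b in all cells (−2.24) was −2.03 without the mtDNA limit, −2.44 in cells of at least 1000 UMIs, −0.69 as a mean of per-cell CPM, −0.63 with cells thinned to 400 UMIs, and −1.89 without the top 5% of cells by UMIs. In RPE-like cells (−2.09) it was −1.63 per cell, −1.53 thinned, −1.79 without the top 5%, and −2.27 in barcodes called by their own markers. That call covered every named class and gave 284 WT and 882 ND6 RPE-like barcodes, so it differs from the rule of at least 3 genes above. In cells at or below the median rod marker share, here a low rod share, the ratio was −1.88. Chosen after seeing the data, it was −0.61, −1.56, and −1.10 in groups 1, 2, and 3 (−1.61, −1.55, and −1.01 without the cell of most Cox8b UMIs in each library), −0.81, −0.35, and −2.31 in the ranges of rising depth, and −3.91 in deep cells without pigment UMIs.

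In WT the log2 ratio of Cox8b in RPE-like over rod-like cells was 8.11 per cell, 8.46 thinned, 8.89 without the top 5%, 8.94 by markers, and 9.89 with a low rod share. In ND6 it was 7.64 per cell, 7.61 thinned, and 9.001 with a low rod share. The Cox8b share in WT RPE-like cells was 37.4% without the mtDNA limit, 33.2% per cell, 31.9% thinned, 36.1% without the top 5%, 41.1% at resolution 2, 40.5% by markers, and 42.9% with a low rod share. In ND6 it was 16.6% at resolution 2 and 17.7% with a low rod share. Over all cells 4038 genes passed 1.5-fold, 8046 with a minimum of 1 UMI and 2496 with 100 UMIs. Values of ND6 over WT that changed sign were Cox7a1 in bipolar-like cells with a low rod share (−0.10), Cox4i2 in amacrine-like cells without the mtDNA limit (−1.37), and Cox4i1 in thinned Müller-like cells (−0.032). Ratios over rod-like cells that changed sign were WT Cox8b by markers in bipolar-like (−0.15) and Müller-like cells (1.56), and ND6 Cox4i2 in thinned amacrine-like cells (−0.35). Without the mtDNA limit no cluster was Müller-like, so those values could not be recomputed.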
